A study of Homo sapiens with 36 samples.

Results

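Histone genes encode the proteins on which nuclear DNA is wound. The rows described here are all those of the count matrix whose gene name starts with HIST followed by a digit, 66 of 20802 genes, and 56 of the 66 passed the filter on low counts. They comprise 6 rows for the linker histone H1, 15 for H2A, 20 for H2B, 12 for H3 and 13 for H4. The digit names a genomic cluster: 55 rows belong to HIST1, 7 to HIST2, 3 to HIST3 and 1 to HIST4.

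H2A, H2B, H3 and H4 are the core histones, which form the spool of the nucleosome, and H1 binds the DNA between spools. Most genes of these clusters are replication-dependent: they are transcribed in S phase, when new DNA has to be packed, and their mRNAs end in a stem-loop bound by the protein SLBP in place of a poly(A) tail. A few also give polyadenylated mRNA, which is made outside S phase or in cells that leave the cell cycle. The histone variants lie outside the clusters, and some, such as H2AFZ and H3F3B, are expressed throughout the cycle. MEK activates ERK, which in growing epithelial tumour cells promotes entry into S phase.

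LoVo cells, an established line from a human colorectal cancer, were grown in F-12K medium with fetal bovine serum and received a MEK inhibitor, not named further in the labels, for 24 hours at 0.03, 0.1, 0.3, 1, 3, 10, 30, 100, 300 or 1000 nM, or the solvent DMSO. Each dose had 3 libraries. DMSO had 6, with 3 on each of 2 sequencing chips, and the labels give no chip for the treated libraries. RNA was read as short amplicons of each gene (Ion AmpliSeq), so the level of a row also depends on how well its amplicon works, and levels of different rows are not compared. Values are counts scaled to library size (CPM) with edgeR's TMM factors, and DMSO means are taken over 3 pairs of same-numbered libraries from the 2 chips, which may share RNA. The labels speak of biological replicates without saying how cultures were separated, so p-values measure the spread between these libraries, which may be technical. A row is called when edgeR's quasi-likelihood test gives a Benjamini-Hochberg adjusted p below 0.05, over all 12102 tested genes, against the DMSO libraries of either chip with the same sign. The bulk RNA of a culture cannot tell fewer cells in S phase from less histone mRNA per cell.

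Total counts lay between 2972186 and 4751839 per library, and DUSP6, an ERK target used to check the inhibitor, fell: its level was 64.2 ± 3.27 CPM (SD, n = 3 pairs) under DMSO and 1.89 ± 0.468 CPM (SD, n = 3) at 1000 nM. In an earlier analysis of these data 3 libraries stood apart from their groups, 0.1 nM replicate 2, 1 nM replicate 1 and 1000 nM replicate 1. Without them 17 histone rows were called at 1 nM, 44 at 3 nM and 54 at 1000 nM, against 13, 39 and 52 with them, and the share of all tested genes called was 9.13%, 17.2% and 39.4% without them against 7.97%, 13.3% and 41.8% with them. That fit tested 57 histone rows. It kept 1000 nM replicate 3 and 30 nM replicate 3, whose log2 CPM deviated from the group means with an SD of 0.318 and 0.282 over tested genes. In the 3 libraries left out this SD was 0.269, 0.343 and 0.347. The 0.1 nM replicate 2 library had 2.13% of its counts on histone rows, against 2.58% to 2.69% in the DMSO libraries. There 41 of the 56 tested rows lay below the mean of the other 0.1 nM libraries. The median difference from that mean was -0.38 on the log2 scale, against 0.02 over all tested genes. The median difference of H1 rows was 0.19, and those of H2A, H2B, H3 and H4 rows were -0.19, -0.56, -0.38 and -0.44.

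Most measured histone rows fell under the inhibitor, in all classes. At 1000 nM 50 of the 56 tested rows were called lower and 2 higher, where 20.7% and 21.2% of all tested genes were called lower and higher. A fall of at least 2-fold was found in 45 rows, against 6.79% of all genes, and a rise of that size in 2, against 7.06%. In 51 rows every library at 1000 nM lay below every DMSO library, against 22.4% of all genes, and in 2, HIST1H2BK and HIST4H4, every library lay above, against 22.9%. The median log2 fold change of the 56 rows was -1.45, beside 0.01 over all tested genes. Histone rows took 2.64 ± 0.0452% of all counts in DMSO (SD, n = 3 pairs) and 1.06 ± 0.0103% at 1000 nM (SD, n = 3), and the ranges of 2.58 to 2.69% and 1.05 to 1.07% did not overlap. The falls of called rows ran from -0.66 in HIST1H2BD to -2.88 in HIST1H2BJ, a row with few counts. The 2 rows that rose were HIST1H2BK and HIST3H3, and the 4 that were not called were HIST1H3E, HIST1H3H, HIST2H3D and HIST4H4. HIST3H3 had few counts and passed the filter through treated libraries, so its direction was largely fixed by the filter. The 10 rows below the filter were HIST1H1A, HIST1H1T, HIST1H2AA, HIST1H2BA, HIST1H2BO, HIST1H4F, HIST1H4G, HIST2H2BA, HIST2H2BC and HIST2H2BF. HIST1H2BO had 47 counts over the 6 DMSO libraries and 5 over the 3 at 1000 nM, HIST2H2BC had 0 counts in all libraries, which allows up to 3 counts by counting error alone, and each of the others had 0 to 10 counts in either group.

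**Figure D1:**
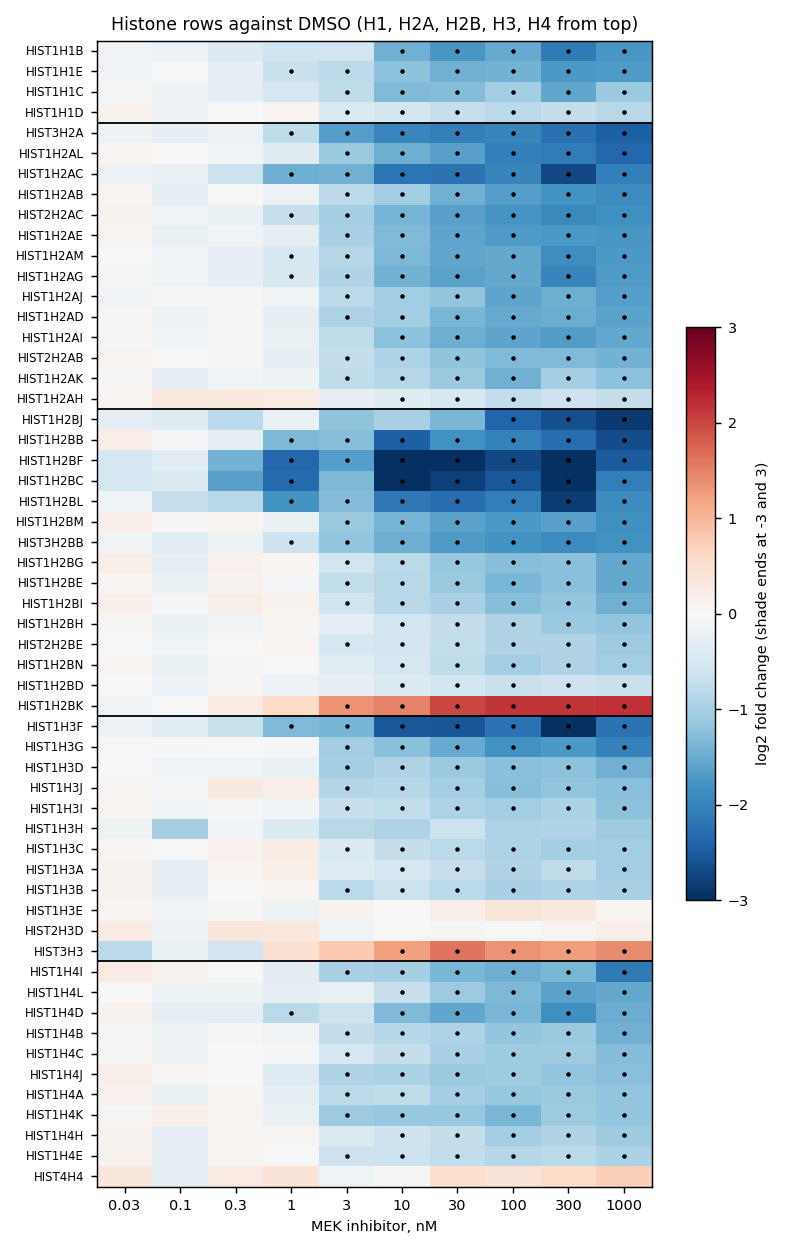
Log2 fold change against DMSO of the 56 tested histone rows (vertical axis, by class and sorted by the value at 1000 nM) at each of the 10 doses (horizontal axis, nM). Dots mark called rows: 13 at 1 nM, 39 at 3 nM and 52 at 1000 nM, and HIST1H2BK and HIST3H3 are the called rows in red.

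The linker histone rows that could be tested, HIST1H1B, HIST1H1C, HIST1H1D and HIST1H1E, all fell, with a median of -1.40. For this and the class counts below, 20.7% of all tested genes were called lower at 1000 nM and 21.2% higher. HIST1H1E stood at 1005 to 1089 CPM with a median of 1046 CPM in the DMSO libraries and at 218, 367 and 372 CPM at 1000 nM, a log2 fold change of -1.71 (SE 0.167, adjusted p = 1.24e-09). Its treated libraries lay below all DMSO libraries, with the lowest value in replicate 1. HIST1H1D, at 339 to 372 CPM with a median of 349.9 CPM in DMSO and 232, 197 and 162 CPM at 1000 nM, changed least among the H1 rows, by -0.84 (SE 0.115). HIST1H1B averaged 269 ± 31.2 CPM under DMSO (SD, n = 3 pairs) and 80.2 ± 37.5 CPM at 1000 nM (SD, n = 3), -1.74 (SE 0.282) on the log2 scale, and HIST1H1C, which can also give polyadenylated mRNA, changed by -1.10 (SE 0.180). In both of these the highest treated library was replicate 3, at 120.4 and 311 CPM. The testis-type H1 row HIST1H1T and the row HIST1H1A had 2 and 4 counts over all DMSO libraries and were not tested.

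H2A, which pairs with H2B in the nucleosome, fell in all 14 tested rows, with the lowest class median of -1.72. HIST1H2AG had 1438 to 1717 CPM with a median of 1514 CPM in DMSO and 374, 493 and 552 CPM at 1000 nM, with no overlap, and changed by -1.71 (SE 0.120). HIST3H2A, the H2A gene of the third cluster, had 282 to 348 CPM with a median of 308 CPM in DMSO and 59.1, 59.97 and 51.4 CPM at 1000 nM, -2.45 (SE 0.127, adjusted p = 2.02e-21), the smallest adjusted p of any histone row. The 3 treated values of HIST3H2A lay close together. HIST1H2AL changed by -2.36 (SE 0.143), HIST1H2AM by -1.73 (SE 0.120) and HIST2H2AB, from the second cluster, by -1.43 (SE 0.0848). HIST1H2AB and HIST1H2AK, both first called at 3 nM, stood at -1.89 and -1.24. The smallest H2A fall was in HIST1H2AH, at 468 to 577 CPM with a median of 498 CPM in DMSO and 362, 253 and 314 CPM at 1000 nM, -0.72 (SE 0.137, adjusted p = 6.28e-05). HIST1H2AH had 524 to 689 CPM at 0.3 nM and 584 to 625 CPM at 1 nM, with log2 fold changes of 0.30 and 0.24 that were not called, before it fell from 10 nM on.

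H2B was the class with the clearest exception: 14 of 15 tested rows fell and 1 rose, with a median of -1.53. HIST1H2BK, one of the H2B genes known to give polyadenylated mRNA, rose in steps. It had 9.27, 10.6 and 9.35 CPM in the DMSO libraries of chip 1, 12.9, 10.98 and 8.52 CPM in those of chip 2, 12.1, 17.6 and 15.99 CPM at 1 nM, 29.4, 28.1 and 29.8 CPM at 10 nM and 54.03, 48.3 and 39.1 CPM at 1000 nM. From 3 nM on every library lay above every DMSO library, and the treated libraries at 1000 nM held 162 to 192 counts against 25 to 42 in DMSO. The log2 fold change was 1.36 (SE 0.176) at 3 nM, where it was first called, and 2.19 (SE 0.169, adjusted p = 6.74e-15) at 1000 nM. The coding sequence of HIST1H2BK is 93.9% identical to that of its closest relative HIST1H2BE, and HIST1H2BE stood at -1.52 (SE 0.186). Whether the amplicons of these rows share reads was not tested.

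Of the other rows in the list of histone genes known to give polyadenylated mRNA, HIST1H1C, HIST1H2AC, HIST1H2BC, HIST1H2BD, HIST1H2BJ and HIST2H2BE were called lower at 1000 nM. So 6 of 7 fell and 1 rose, with a median of -1.10 against -1.45 for the 49 other tested rows. Among all tested genes 20.7% were called lower and 21.2% higher. HIST1H2BD had 1355 to 1452 CPM with a median of 1395 CPM in DMSO and 966, 882 and 797 CPM at 1000 nM, which did not overlap, and fell least of all called rows, -0.66 (SE 0.126). HIST2H2BE fell by 1.06 on the log2 scale (SE 0.110), HIST1H2BN by 1.05 (SE 0.109) and HIST1H2BI by 1.45 (SE 0.121). The largest falls in the class were in rows with few counts. HIST1H2BJ had 4 to 14 counts in the DMSO libraries and 0, 3 and 1 at 1000 nM, -2.88 (SE 0.741), and HIST1H2BB had 15 to 29 counts and 0, 3 and 8, -2.67 (SE 0.459). Both rows passed the filter on low counts through libraries other than those at 1000 nM, so their direction was largely fixed by the filter. Their fold changes rest on single libraries: HIST1H2BJ stood at -4.16 without 1000 nM replicate 2 and HIST1H2BB at -3.81 without 1000 nM replicate 3.

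HIST1H2BC and HIST1H2BF fell early but varied widely between libraries of a group. HIST1H2BC had 547, 289 and 249.5 CPM in the DMSO libraries of chip 1 and 491, 279 and 253 CPM in those of chip 2, so replicate 1 was high on both chips. At 1000 nM it had 17.7, 41.8 and 185 CPM, a fall to below every DMSO library with a wide range, -2.08 (SE 0.614, adjusted p = 0.00897). HIST1H2BF had 141, 113 and 101 CPM on chip 1, 143, 115 and 86.5 CPM on chip 2 and 3.66, 10.8 and 45.1 CPM at 1000 nM, -2.49 (SE 0.525, adjusted p = 4.19e-04). In both rows replicate 3 of 1000 nM was the high library, and without it the log2 fold changes were -3.57 and -4.02. A fit restricted to the DMSO and 1000 nM libraries did not call HIST1H2BC (adjusted p = 0.103 with edgeR), and over all alternatives its adjusted p ran from 2.51e-68 to 0.103.

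The bases upstream of these 3 H2B starts, from RefSeq on GRCh38.p14, are shown to set the row that rose beside a pair of rows of its class that fell. The HIST1H2BK window is chr6:27146859-27147108 on the minus strand (current symbol H2BC12), that of HIST1H2BC is chr6:26123927-26124144 on the minus strand (H2BC4) and that of HIST1H2BF is chr6:26199294-26199515 on the plus strand (H2BC7). Each is printed from 5′ to 3′ up to the base before the start site. The windows of HIST1H2BC and HIST1H2BF stop after 218 and 222 bases, where the neighbouring H2A gene starts in the opposite direction by RefSeq (by GENCODE release 29 HIST1H2AD starts farther off, 276 bases from HIST1H2BF). Capitals mark matches on either strand to CCAAT, to TATAAA or to the octamer ATGCAAAT, which binds OCT1, a factor of H2B genes, and overlapping matches run together.
HIST1H2BK: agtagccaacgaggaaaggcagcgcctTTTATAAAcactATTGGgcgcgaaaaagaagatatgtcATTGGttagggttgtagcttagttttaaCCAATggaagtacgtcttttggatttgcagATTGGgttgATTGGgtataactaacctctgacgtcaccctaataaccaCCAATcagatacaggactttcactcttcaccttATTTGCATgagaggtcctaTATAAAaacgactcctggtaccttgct
HIST1H2BC: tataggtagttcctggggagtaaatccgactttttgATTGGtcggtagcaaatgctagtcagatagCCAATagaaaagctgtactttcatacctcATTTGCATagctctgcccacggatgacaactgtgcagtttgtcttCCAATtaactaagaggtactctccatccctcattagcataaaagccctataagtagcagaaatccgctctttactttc
HIST1H2BF: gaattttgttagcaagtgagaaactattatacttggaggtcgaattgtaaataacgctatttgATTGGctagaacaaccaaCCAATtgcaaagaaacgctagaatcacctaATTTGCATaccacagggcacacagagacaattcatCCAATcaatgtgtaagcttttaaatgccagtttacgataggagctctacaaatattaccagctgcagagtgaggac
All 3 hold the octamer once, read as ATTTGCAT on the printed strand. HIST1H2BK holds 6 CCAAT and 3 TATAAA matches, and HIST1H2BC and HIST1H2BF each hold 3 CCAAT and 0 TATAAA matches. The rows that fell were not alike in this: over 300 bases, 250 before to 50 after the start, HIST1H2BJ held 4 CCAAT and 4 TATAAA, HIST1H2BM 5 and 1, HIST1H2AG 4 and 3, and HIST1H2BC 3 and 1.

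H3, the core histone whose tail carries many of the known chromatin marks, was mixed: 8 of 12 tested rows fell, 1 rose and 3 were not called, with a median of -1.06. HIST1H3G had 1511 to 1640.2 CPM with a median of 1543 CPM in DMSO and 419, 404 and 322 CPM at 1000 nM, -2.04 (SE 0.117, adjusted p = 2.56e-19), with no overlap. HIST1H3I changed by -1.24 (SE 0.101), HIST1H3J by -1.24 (SE 0.107) and HIST1H3B by -0.98 (SE 0.198), while HIST1H3A, HIST1H3C and HIST1H3D stood at -1.03, -1.05 and -1.45. HIST1H3F averaged 431 ± 51.9 CPM under DMSO (SD, n = 3 pairs) and 91.7 ± 56.04 CPM at 1000 nM (SD, n = 3), -2.22 (SE 0.375) on the log2 scale, with treated libraries at 37.7, 87.8 and 149.6 CPM. All of these rows encode the same protein as HIST1H3E, which was not called at any dose. HIST1H3E had 16.01 to 21.02 CPM with a median of 19.3 CPM in DMSO and 16.9, 19.6 and 22.9 CPM at 1000 nM, overlapping, with 0.07 (SE 0.183, adjusted p = 0.858).

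HIST2H3D, the H3 row of the second cluster, had 14.4 to 24.95 CPM with a median of 18.4 CPM in DMSO and 22.2, 24.9 and 16.4 CPM at 1000 nM, also overlapping, with 0.18 (SE 0.210, adjusted p = 0.78). HIST1H3H, with 3.85 to 5.76 CPM with a median of 4.85 CPM in DMSO and 3.38, 2.05 and 1.69 CPM at 1000 nM, lay below every DMSO library but was not called, -1.07 (SE 0.465, adjusted p = 0.0616). HIST3H3, known as a testis-type H3 gene, rose: it had 0.825 to 4.29 CPM with a median of 1.81 CPM in DMSO, 6.10, 6.52 and 6.61 CPM at 30 nM and 2.53, 6.73 and 7.48 CPM at 1000 nM. In raw counts this was 3 to 17 per DMSO library and 9, 23 and 31 at 1000 nM, where replicate 1 lay within the DMSO range. The row reached the filter on low counts through treated libraries, in which it is high, so its direction was largely fixed by the filter. It was first called at 10 nM and stood at 1.61 (SE 0.413, adjusted p = 0.00115) at 30 nM and 1.42 (SE 0.421, adjusted p = 0.00365) at 1000 nM. Its coding sequence is 88.7% identical to that of HIST2H3D, its closest relative, and 81.1% to that of HIST1H3B.

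**Figure D2:**
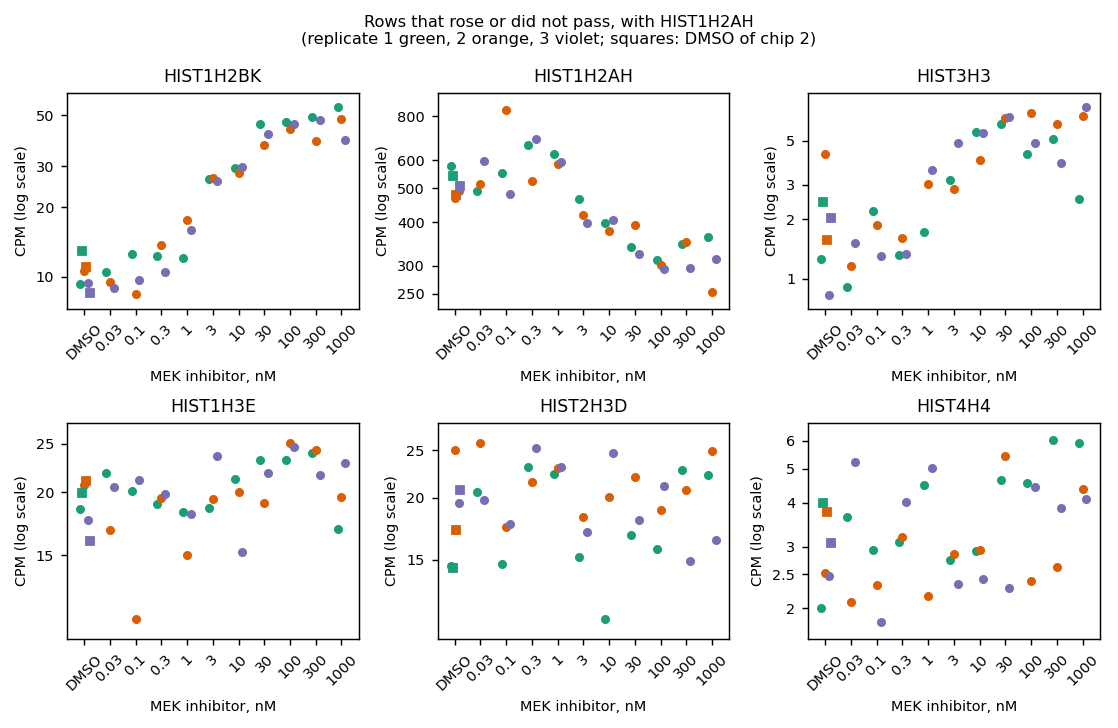
CPM (log axes) of HIST1H2BK, of its divergent neighbour HIST1H2AH, and of HIST3H3, HIST1H3E, HIST2H3D and HIST4H4 in each of the 36 libraries, with DMSO and the 10 doses (nM) on the horizontal axis and 1 point for each library. HIST1H2BK rises from below 13 CPM in DMSO to 39.1 CPM or more at 1000 nM while HIST1H2AH falls, and HIST1H3E and HIST2H3D keep overlapping ranges.

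H4, the most conserved core histone, fell in 10 of 11 tested rows, with a median of -1.26. HIST1H4C had 2006 to 2241 CPM with a median of 2139 CPM in DMSO and 896, 905 and 786 CPM at 1000 nM, -1.31 (SE 0.0961, adjusted p = 6.82e-16), with treated libraries far below the DMSO range. HIST1H4H changed by -1.06 (SE 0.141), HIST1H4E by -0.95 (SE 0.167), HIST1H4B by -1.45 (SE 0.193) and HIST1H4D by -1.50 (SE 0.232), while HIST1H4A, HIST1H4I and HIST1H4L stood at -1.17, -2.12 and -1.54. The row that was not called was HIST4H4, which lies outside the large clusters and had 8 to 13 counts per DMSO library and 21, 15 and 17 at 1000 nM. Its level was 2.004 to 3.99 CPM with a median of 2.79 CPM in DMSO and 5.91, 4.39 and 4.10 CPM at 1000 nM, 0.71 (SE 0.382, adjusted p = 0.426), and every treated library lay above every DMSO library. Against the DMSO libraries of chip 1 alone edgeR called it at 1.03, with an adjusted p of 0.0210, and over all its alternatives the adjusted p ran from 0.021 to 0.769, with no call under the others.

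Summed over their tested rows, all 5 classes declined along the doses, by unequal amounts. The H2A sum was 6101 ± 315 CPM under DMSO (SD, n = 3 pairs) and 1914 ± 163 CPM at 1000 nM (SD, n = 3), 31.4% of the DMSO mean. H2B went from 5360.5 ± 165 to 2492 ± 184 CPM, 46.5% of DMSO. The libraries of neither class overlapped with DMSO. A large part of the H2B sum came from HIST1H2BD and HIST2H2BE, both in the list of polyadenylated rows. They averaged 1397 and 1421 CPM in DMSO and 881 and 683 CPM at 1000 nM. The median log2 fold change of H2B rows, -1.53, was lower than those of H1, H3 and H4 rows, -1.40, -1.06 and -1.26. For H1, H3 and H4 the sums at 1000 nM were 38.4%, 39.8% and 42.5% of DMSO. The H1 sum at 1000 nM ranged from 661 to 965 CPM over its 3 libraries, and the ratio of core to linker sums, 11.2 ± 0.245 in DMSO (SD, n = 3 pairs) and 12.1 ± 3.25 at 1000 nM (SD, n = 3), overlapped between these groups. At 0.3 nM the H1 sum (1797 to 1893 CPM) and the H2A sum (5373 to 5562 CPM) already lay below all DMSO libraries (from 2080.2 and 5898 CPM), at 84.96% and 89.4% of DMSO, while H2B, H3 and H4 stood at 95.9%, 102% and 99.5%. At 1 nM, H1 and H2A were at 71.7% and 75.2% of DMSO, while H2B, H3 and H4 stood at 89.6%, 100.1% and 93.3%. The 1 nM libraries of H1 (1514 to 1648 CPM) and H2A (4220.1 to 4784 CPM) lay below all DMSO libraries, and those of H3 (6441 to 7565 CPM) spanned the DMSO range. The core to linker ratio was 14.1 ± 0.736 at 1 nM (SD, n = 3). These sums are weighted by how well each amplicon works, and the order of the classes was not tested.

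**Figure D3:**
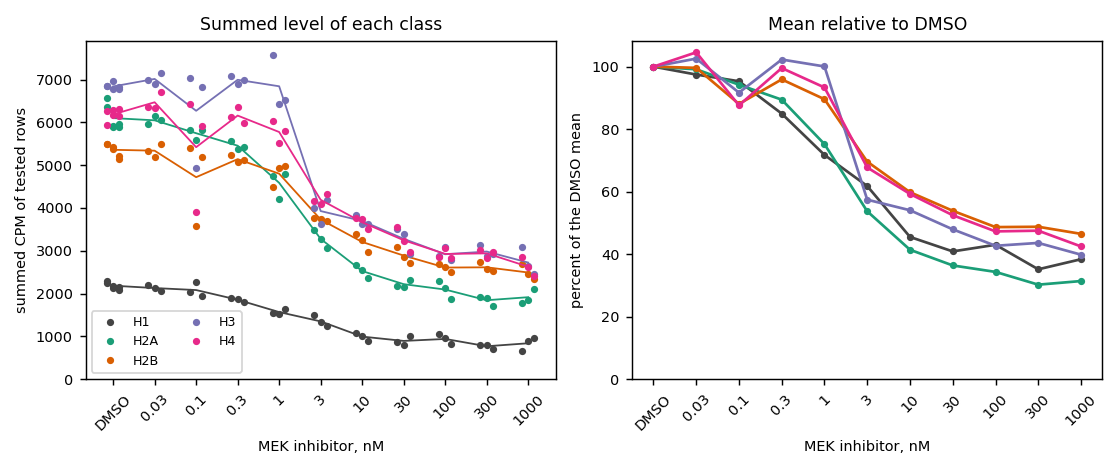
Left, summed CPM of the tested rows of H1, H2A, H2B, H3 and H4 in each library (points) with group means (lines), against the dose in nM. Right, the group means as percent of the DMSO mean, where H2A ends lowest at 31.4% and H2B highest at 46.5%. The low points at 0.1 nM are replicate 2.

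Rows of every cluster except HIST4 fell at 1000 nM, where 20.7% of all tested genes were called lower and 21.2% higher. In HIST1, on chromosome 6, 45 of 48 tested rows fell and 1 rose, with a median of -1.47, and in HIST2 3 of 4 fell with a median of -1.24. Their summed CPM went to 39.7% and 44.4% of DMSO at 1000 nM, HIST1 from 23909.8 ± 469 (SD, n = 3 pairs) to 9497 ± 341 CPM (SD, n = 3) and HIST2 from 2093 ± 36.5 to 929.9 ± 96.6 CPM. The small HIST3 cluster, on chromosome 1, held the row with the smallest adjusted p, HIST3H2A, together with HIST3H2BB, -1.82 (SE 0.118). It also held HIST3H3, the row with few counts that was called higher. HIST3 rows summed to 24.4% of DMSO at 1000 nM and were already at 62.2% at 1 nM, where HIST1 and HIST2 stood at 88.3% and 97.4%. HIST3H2A had 176, 172 and 204 CPM at 1 nM and HIST3H2BB 181, 244 and 264 CPM, both below all DMSO libraries. The difference between clusters was not tested, and HIST2 and HIST3 have few tested rows. In DMSO the HIST2 sum was mostly HIST2H2BE, with a mean of 1421 CPM. The HIST3 sum was mostly HIST3H2A and HIST3H2BB, with medians of 308 and 356 CPM, so these sums describe single rows more than clusters.

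Since many of these genes are near copies, reads could be shared between rows. In GENCODE release 29, 64 of the 66 rows have a coding sequence. The 6 H1 genes encode 6 distinct proteins, the 15 H2A genes 10, the 18 H2B genes with a coding sequence 14, the 12 H3 genes 3 and the 13 H4 genes 2, with 10 H3 rows and 12 H4 rows that each encode 1 protein. Their coding sequences still differ: the identity to the closest relative had a median of 75.7% in H1, 89.5% in H2A, 93.1% in H2B, 88.0% in H3 and 85.8% in H4. HIST1H4J and HIST1H4K are identical over the whole coding sequence, and their values in these files cannot be told apart if the amplicons lie within it. They changed by -1.26 (SE 0.193) and -1.15 (SE 0.129). With rows of identical proteins summed, 28 rows remained, of which 25 were called lower and 2 higher at 1000 nM. The 10 summed H3 rows changed by -1.34 (SE 0.0965), the 12 summed H4 rows by -1.24 (SE 0.100), the 5 H2B rows summed with HIST1H2BC by -1.70 (SE 0.115) and the 5 H2A rows summed with HIST1H2AG by -1.79 (SE 0.103). HIST2H3D, at 0.18, was the summed row without a call.

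Calls of histone rows began at 1 nM in the fit of all groups. At 0.3 nM some rows lay below every DMSO library without a call in that fit. No histone row was called at 0.03, 0.1 or 0.3 nM, where 0% of all genes were called by edgeR's quasi-likelihood test, also 0 rows by DESeq2 and by limma voom, and 0, 4 and 6 rows had an unadjusted p below 0.05, as did 0.347%, 2.47% and 2.73% of all genes. At 0.3 nM 4 of 65 rows were called with no filter on low counts (0.224% of all genes) and 8 of 55 in a fit restricted to the groups compared (1.09% of all genes). In 14 rows every library at 0.3 nM lay below every DMSO library (4.83% of all genes) and in 3 above (4.2%). At 1 nM 13 rows were called, all lower, against 4.02% of all genes called lower and 3.95% higher. At 3 nM 38 were lower and 1 higher (6.68% and 6.66% of all genes), at 10 nM 49 and 2 (13.3% and 13.5%), at 30 nM 49 and 2 (18% and 18%), at 100 nM 50 and 2 (18.8% and 18.4%) and at 300 nM 50 and 2 (23% and 22.1%). The median log2 fold change was -0.02 at 0.3 nM and -0.20 at 1 nM. It then reached -0.77 at 3 nM, and -0.94 and -1.13 at the next doses, 10 and 30 nM. Of the 52 rows called at any dose, 13 were first called at 1 nM, 28 at 3 nM, 10 at 10 nM and HIST1H2BJ at 100 nM.

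The 13 rows called at 1 nM came from every class. Among them were HIST1H1E at -0.68, the H2A rows HIST1H2AC at -1.46, HIST1H2AG at -0.47, HIST1H2AM at -0.48, HIST2H2AC at -0.70 and HIST3H2A at -0.75, and the H2B rows HIST1H2BB at -1.35, HIST1H2BC at -2.31, HIST1H2BF at -2.36, HIST1H2BL at -1.78 and HIST3H2BB at -0.63, all log2 fold changes. HIST1H3F, at -1.32, and HIST1H4D, at -0.80, were the H3 and H4 rows. HIST1H2AC, whose mRNA can be polyadenylated, had 568 to 752 CPM with a median of 607 CPM in DMSO, 431, 413 and 400.3 CPM at 0.3 nM and 228, 206 and 270.1 CPM at 1 nM. Its libraries at 0.3 nM already lay below every DMSO library, although the row was not called there. HIST2H2AC had 178 to 193 CPM with a median of 185 CPM in DMSO and 89.6, 128 and 121 CPM at 1 nM, -0.70 (SE 0.107, adjusted p = 1.88e-05), without overlap. The count at this dose depended on single libraries: it was 7 without 1 nM replicate 2 and 8 without replicate 1 of DMSO chip 2, and 20 against the mean of both DMSO groups.

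Doses a factor of 10 apart were also compared directly. From 1 to 10 nM 40 rows fell and 1, HIST1H2BK, rose (8.36% and 7.06% of all genes), with a median of -0.71 beside 0.01 over all genes. From 10 to 100 nM 11 rows fell further (3.35% of all genes) and HIST1H2BK rose again (1.78%), by 0.64. The rows that fell in this step included 5 of the H2A class besides HIST2H2AB, among them HIST1H2AL at -0.59, and also HIST1H2BN at -0.54, HIST1H3G at -0.57 and HIST1H4C at -0.34. Without 10 nM replicate 1 the number called in this step was 7 in place of 12. From 100 to 1000 nM edgeR's quasi-likelihood test called 0 histone rows (0.00826% of all genes lower, 0% higher), with 4 at an unadjusted p below 0.05 and 0 by DESeq2. Between the DMSO groups of the 2 chips 0 rows were called (0% of all genes in each direction), with 1 at an unadjusted p below 0.05 and 0 by DESeq2. This comparison took the libraries as unpaired, although same-numbered ones may share RNA. With the replicate number as a block 0 rows were called too.

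A saturation curve with DMSO as dose 0 was fitted to the 47 rows changed at least 2-fold, and the dose at the midpoint of the change (EC50) was well determined in 39, with a standard error of its log10 below 0.2. These EC50 values ran from 0.882 nM in HIST1H2AC to 16.3 nM in HIST1H4L, with a median of 3.28 nM and quartiles of 2.33 and 5.34 nM. HIST3H2A (1.66 nM), HIST3H2BB (2.09 nM) and HIST2H2AC (2.09 nM) lay in the lower quartile, and HIST1H2BH (14.8 nM) and HIST1H2BN (9.85 nM) near the upper end. The rising HIST1H2BK, at 2.29 nM, lay within the range of the falling rows. HIST1H4J and HIST1H4K, the rows with identical coding sequences, had 1.39 and 1.44 nM. The curve was not well determined in HIST1H2AI, HIST1H2BB, HIST1H2BC, HIST1H2BF, HIST1H2BJ, HIST1H2BL, HIST1H3A and HIST3H3. The class medians were 2.49 nM for 3 H1 rows, 3.01 nM for 12 H2A rows, 5.46 nM for 9 H2B rows, 3.37 nM for 6 H3 rows and 2.74 nM for 9 H4 rows, and the ranges of the classes overlapped.

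A set of rows varied together between libraries of the same group. The standard deviation of log2 CPM within groups was above 0.3 in 12 of the 56 rows, where 27.4% of all tested genes were above it, and the median was 0.203 over histone rows and 0.209 over all tested genes. HIST1H2BC and HIST1H2BF were highest, both at 0.81. Across the 36 libraries the deviations of HIST1H2BC from its group means went with those of HIST1H2AC (r = 0.96), HIST1H1B (0.94), HIST1H2BF (0.91), HIST1H2AG (0.89), HIST1H3F (0.89), HIST1H1C (0.89), HIST1H2AM (0.84) and HIST1H4D (0.83), as Pearson correlations. Of the other rows, 16 had r between -0.3 and 0.3 and 26 had r below -0.3. Points of 1 library share its scaling, so these values are a description.

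Within their groups, all 9 of these rows, HIST1H2BC included, were highest in replicate 1 of DMSO chip 1, 30 nM replicate 3, 100 nM replicate 1 and 1000 nM replicate 3, and all but HIST1H4D in replicate 1 of DMSO chip 2. The rows were picked by their correlation over these same libraries, so such agreement is partly built in. In other groups they split: at 0.1 nM HIST1H2BC was highest in replicate 2 and HIST1H3F in replicate 3. At 1 nM HIST1H2BC was highest in replicate 1 and HIST1H2BF in replicate 3. HIST1H3F, for example, had 45.01, 54.4 and 119 CPM at 30 nM, 136, 83.2 and 57.97 CPM at 100 nM and 37.7, 87.8 and 149.6 CPM at 1000 nM. HIST1H4D had 129, 139 and 227 CPM, 227, 176 and 159 CPM and 111, 154 and 248 CPM at these doses, with the same library highest each time. Within the 5 H2B rows of identical protein the pattern was divided: HIST1H2BF followed HIST1H2BC, whereas HIST1H2BE, HIST1H2BG and HIST1H2BI, 93.1%, 90.2% and 91.3% identical to HIST1H2BC in coding sequence, had r of -0.47, -0.43 and -0.50 with it. HIST1H2BE had 104, 74.9 and 70.5 CPM at 1000 nM. HIST1H2BE was highest in replicate 1 there, where HIST1H2BC was lowest.

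**Figure D4:**
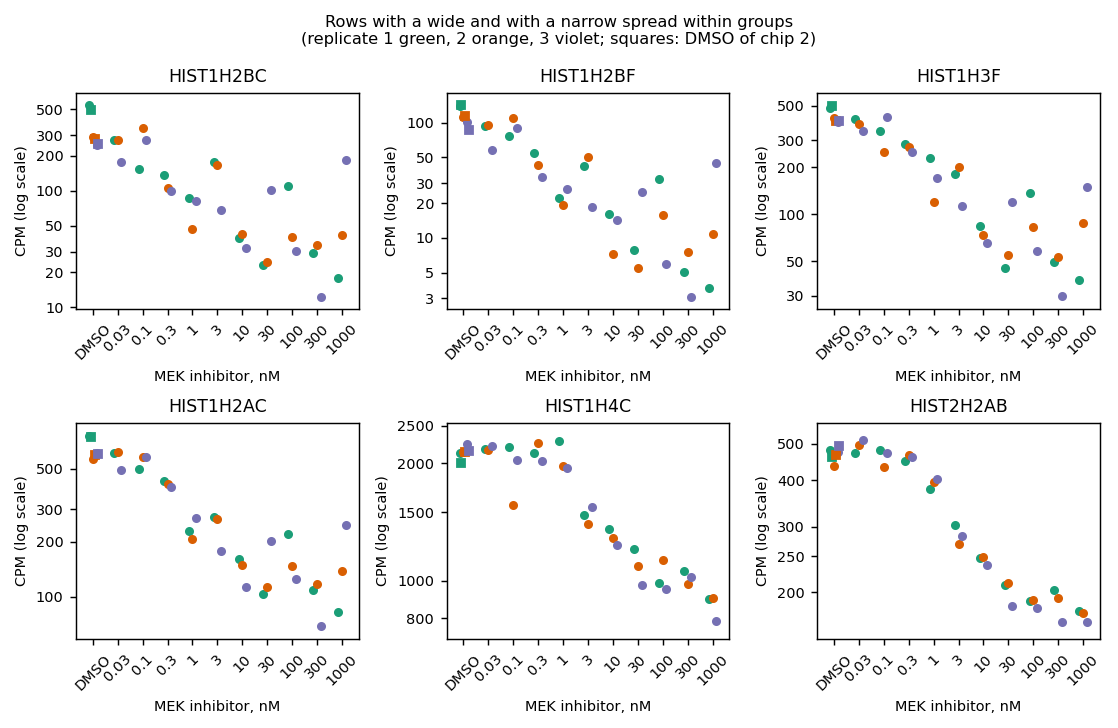
CPM (log axes) in each of the 36 libraries against the dose in nM, for HIST1H2BC, HIST1H2BF, HIST1H3F and HIST1H2AC, which vary widely within groups, and for HIST1H4C and HIST2H2AB, which do not. At 1000 nM replicate 3 (violet) is highest in the first 4 rows and lowest in HIST1H4C.

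Many H2A and H2B genes lie head to head, so that 1 stretch of DNA between the starts serves both. In GENCODE release 29, 12 pairs of histone genes start less than 1000 bases apart in opposite directions, and both members were tested in 9. The pairs were examined because their members share a promoter region. In 8 of the 9 pairs both genes fell at 1000 nM. This count follows from the classes, as all 14 tested H2A rows and 14 of 15 tested H2B rows fell. Whether neighbours changed more alike than other rows was not tested. HIST1H2AC and HIST1H2BC, 218 bases apart, stood at -2.05 and -2.08, HIST1H2AD and HIST1H2BF, 276 bases apart, at -1.60 and -2.49, HIST1H2AG and HIST1H2BJ at -1.71 and -2.88, and HIST3H2A and HIST3H2BB, 233 bases apart, at -2.45 and -1.82. In HIST1H2AE with HIST1H2BG, HIST1H2AJ with HIST1H2BM and HIST1H2AI with HIST1H2BL the H2A values were -1.74, -1.65 and -1.54 and the H2B values -1.53, -1.84 and -1.90. HIST1H2AI and HIST1H2BL had few counts, at most 32 and 68 in any library. HIST2H2AC fell by 1.84 and its neighbour HIST2H2BE by 1.06. In the remaining pair the directions were opposite: HIST1H2AH fell by 0.72 on the log2 scale while HIST1H2BK, whose start lies 330 bases away, rose by 2.19, and both were called with groups that did not overlap.

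**Figure D5:**
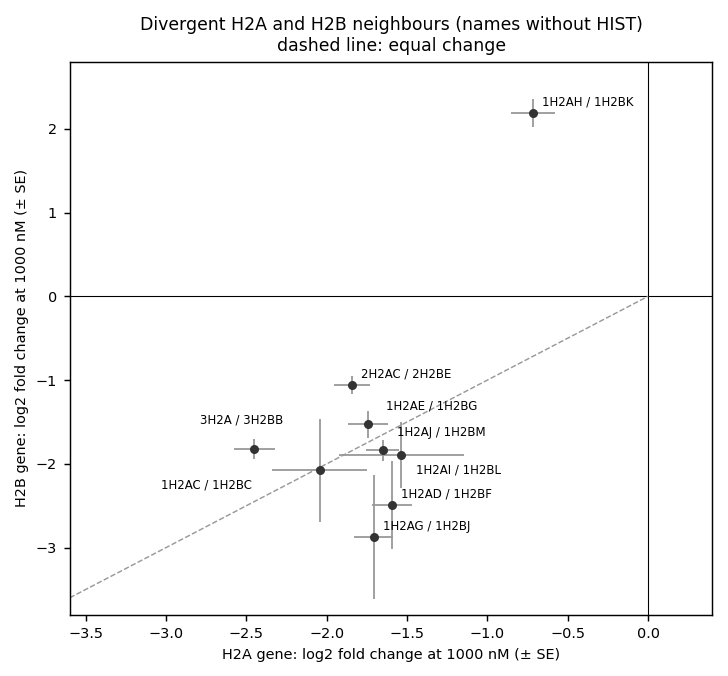
Log2 fold change at 1000 nM of the H2A gene (horizontal axis) against that of its divergent H2B neighbour (vertical axis) in the 9 pairs with both genes tested, with bars of 1 SE and a dashed line of equal change. The pair HIST1H2AH and HIST1H2BK stands alone above 0 on the vertical axis, at -0.72 and 2.19.

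Promoter sequences differed in a known way between the classes. For 57 of the 66 rows RefSeq gave a promoter window on GRCh38.p14 of 250 bases before to 50 after the start, and motifs were searched on both strands in these and in the windows of 27305 genes in all. CCAAT was found in 49 of the 57, or 86.0%, against 35.7% of all promoters: all H1, H2A, H2B and H3 windows held it, and 3 of 11 H4 windows did. TATAAA was found in 38 of the 57, or 66.7%, against 11.95%. The octamer ATGCAAAT, which is known for H2B genes, was found in 11 of 14 H2A and 14 of 18 H2B windows, in 1 of 8 H3 windows and in 0 of the H1 and H4 windows, or 45.6% of all 57 against 1.80%. The H1 box AAACACA, an element of linker histone promoters, was in all 6 H1 windows and in 1 other, against 5.76% of all promoters. The E-box CACGTG was found in 0 of the 57 and in 7.43% of all promoters. Divergent neighbours share part of a window, so their matches are not independent.

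Genes that act on histones gave mixed values. Of all tested genes, 20.7% were called lower and 21.2% higher at 1000 nM. Of 15 tested genes of histone transcription and mRNA processing, 6 fell and 1 rose at 1000 nM, with a median of -0.48. SNRPB, a shared core protein of spliceosomal and histone-processing particles, changed by -0.85 (SE 0.0991), CPSF2, a subunit of the cleavage complex, by -1.34 (SE 0.214) and ZNF473, which binds the histone pre-mRNA processing particle, by -0.84 (SE 0.197). LSM10 and LSM11 of this list were also called lower, at -0.88 (SE 0.267) and -1.60 (SE 0.419), with 77 and 27 counts over the libraries at 1000 nM. NPAT, the activator of histone genes in S phase, and SLBP were not called, at -0.09 (SE 0.161) and -0.10 (SE 0.118). Of 17 histone chaperones, which carry histones to DNA, 8 fell and 1 rose, with a median of -0.43. The importin IPO4, which brings newly made histones into the nucleus, changed by -1.60 (SE 0.119), HJURP, the chaperone of the centromeric H3, by -1.05 (SE 0.0953), and SSRP1, a subunit of the FACT complex, by -0.86 (SE 0.0912).

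The histone variants outside the clusters were mixed: of 10 tested, 4 fell, 2 rose and 4 were not called, with a median of -0.22. Not all of this list need be independent of the cell cycle, which was not tested. At 1000 nM 20.7% of all tested genes were called lower and 21.2% higher. H2AFX, the variant phosphorylated at DNA breaks, changed by -0.64 (SE 0.105), H3F3A, a replacement H3, by 0.76 (SE 0.140) and CENPA, the H3 of centromeres, by -0.96 (SE 0.198). The direction of the 12 S phase entry genes depended on dose: at 1 nM 0 fell and 6 rose (median 0.38), at 3 nM 0 and 5 (0.44) and at 10 nM 2 and 5 (0.27), doses at which histone rows were already called lower. At 100 nM 5 fell and 1 rose (-0.28), and at 1000 nM 7 fell and 0 rose, with a median of -0.44. Of all tested genes, 4.02% were called lower and 3.95% higher at 1 nM. The shares were 6.68% and 6.66% at 3 nM, 13.3% and 13.5% at 10 nM and 18.8% and 18.4% at 100 nM. At 1000 nM RRM2, a subunit of the enzyme that makes DNA building blocks, changed by -0.74 (SE 0.0899), the replication licensing factor CDC6 by -1.29 (SE 0.190) and CDT1 by -0.53 (SE 0.0956). PCNA and CCNE1 were not called, at 0.13 (SE 0.126) and 0.07 (SE 0.277). The median of the histone rows at 1000 nM, -1.45, lay below the medians of these 4 lists, a difference that was not tested.

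Markers of cell types that a culture could hold were read beside the histone rows. Of 9 colorectal epithelial markers, all tested, 4 fell and 2 rose at 1000 nM, with a median of -0.08. At this dose 20.7% of all tested genes were called lower and 21.2% higher. The summed counts of the 9 markers were 10036 to 14549 per library in DMSO and 9969 to 11223 at 1000 nM. CEACAM5 changed by -1.54 (SE 0.107), CDX2 by 1.04 (SE 0.0949) and CDH17 by -0.65 (SE 0.0941). Of 9 fibroblast markers 3 passed the filter, COL1A1, COL3A1 and LUM, through treated libraries in which they are high, so their direction was largely fixed by the filter. They had 41, 26 and 13 counts over the 6 DMSO libraries and 145, 184 and 122 over the 3 at 1000 nM. The whole list summed to 12 to 18 counts per library in DMSO and 145 to 170 at 1000 nM, with COL1A2, THY1, FAP and POSTN at 0 counts in both groups. The 4 blood markers did not pass the filter, with 0 to 7 counts per library in DMSO and 1 to 8 at 1000 nM, and PTPRC and CD3E at 0. The part of these markers in the histone values was not tested.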

How the data were processed

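RNA from 36 LoVo libraries was read by Ion AmpliSeq. The authors deposited raw counts per gene for each library. Reads were placed on hg19, per the submitters' processing notes, with aligner and counting tool not given in the sources used here. Totals were 2972186 to 4751839 (median 3952427) per library, and 10 spike-in rows held 0 counts.

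Genes passing edgeR's filterByExpr (12102 of 20802) were fitted with edgeR 4.0.16 (TMM scaling, robust quasi-likelihood fit, 12 groups, 24 residual degrees of freedom) in R 4.3.3. Each dose was tested against the DMSO group of either chip, the larger p was Benjamini-Hochberg adjusted over all tested genes, and calls required an adjusted p below 0.05 and the same sign. Fold changes are on the log2 scale, against the average of the DMSO groups of both chips, and the larger of their 2 standard errors is given. Same-numbered libraries did not in general deviate together (16 of 198 such pairs over all groups had a correlation above 0.1), so replicate number was no block. The same-numbered DMSO libraries of the 2 chips did, and the fit took them as unpaired. DESeq2 1.42.0 and limma 3.58.1 (voom) were alternatives, beside other scaling, filters, references and left-out libraries. The fitting script was tested on simulated data. Curves were fitted with scipy 1.17.1 to log2 CPM with a prior of 1 count, which understates changes of low rows.

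Coding sequences and gene starts came from GENCODE release 29 and promoters from RefSeq. The members, gene lists and tests were chosen with earlier results of these data known. Rows described singly were all H1 rows, the 4 core rows per class with the highest mean CPM, the 6 largest falls and the rises called at 1000 nM, rows called at 1 nM, rows of HIST3 and HIST4, tested divergent pairs and, per list, the 3 smallest adjusted p. Other rows, such as those not called, were named after their values were seen.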

Additional observations from a re-analysis of the deposited data

How the results depend on the processing

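Of the 41 histone rows chosen by rule, 39 kept direction and side of the threshold under every alternative run, HIST1H2BC and HIST4H4 were the exceptions, and 0 results reversed. At 0.3 nM, 4 rows were called with no filter on low counts and 8 with only the libraries compared. At 1 nM, 20 were called against the mean of both DMSO groups, where 21% of all genes were called. Summing rows of identical proteins, which leaves 28 rows to count, gave 20 at 3 nM, 26 at 10 and 30 nM, and 27 at 100, 300 and 1000 nM, with 25 of these lower at the last dose. Leaving out 1 library at a time gave 7 to 14 calls at 1 nM, 45 to 50 at 10 nM, 52 to 54 at 1000 nM, 33 to 38 from 1 to 10 nM and 7 to 13 from 10 to 100 nM. HIST1H2BF stood at -3.13 at 1000 nM with limma voom, against -2.49 with edgeR.

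With the replicate number as a block, 13, 39 and 51 rows were called at 1, 3 and 10 nM, 53 at 1000 nM, 39 from 1 to 10 nM and 12 from 10 to 100 nM, so the block moved no count by more than 2. Among treated libraries replicate numbers are shared by label alone, and over all groups 11 of 36 libraries correlated best with their own number. Same-numbered DMSO libraries of the 2 chips did deviate together. Their correlations were 0.152, 0.0955 and 0.0993, against -0.0982 to -0.00213 between DMSO libraries of other numbers. Low counts limit HIST1H2BB, HIST1H2BJ, HIST1H3H, HIST3H3 and HIST4H4, whose changes rest on 0 to 31 counts per library in DMSO and at 1000 nM. They also limit HIST1H2AI and HIST1H2BL, which had at most 32 and 68 counts in any library.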
